A study of Mus musculus with 15 samples.

Results

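In 3T9-MycER fibroblasts that had received no 4-hydroxytamoxifen (OHT), the strongest point of Myc binding and the strongest point of RNA polymerase II (RNAPII) occupancy were located at each protein-coding promoter and compared. Chromatin immunoprecipitation with sequencing (ChIP-seq) had given 1 peak list per library. The Myc list at 0 min (19995 peaks) was set against the narrow RNAPII list at 0 min (18877 peaks), 2 of the series' 15 samples. The Myc library held 33431447 tags and the RNAPII library 15276996. A promoter was the 1000 bp on either side of a transcription start site (TSS) of a protein-coding transcript, and a factor was present where a peak overlapped that window by at least 1 bp. The position of a factor is the summit of its peak, the base at which the caller found the highest pile of tags, counted along the direction of transcription so that negative positions lie before the TSS. Of 22219 protein-coding genes, 9929 (44.7%) had Myc and 10544 (47.5%) had RNAPII. Both stood at the same TSS of 9435 genes (42.5%), Myc alone was called at 481 (2.16%), RNAPII alone at 1096 (4.93%) and neither at 11194 (50.4%). A further 13 genes had the factors at different TSSs.

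The cells derive from mouse embryonic fibroblasts taken at E13.5. They carry floxed c-myc alleles (c-myc flox/flox) and were infected in vitro with a pBabe bleomycin vector that encodes MycER, Myc fused to a hormone-binding domain that keeps it inactive until OHT binds. All libraries used here share this genotype. The 0 min cells had no OHT. The other 10 Myc and RNAPII libraries came 10, 20 and 30 min and 2 and 4 h after 400 nM OHT, and here they serve only to show how far a summit moves from library to library. Myc was precipitated with antibody N262 and RNAPII with antibody N20. N262 reads Myc sequence, so no peak can be assigned to the endogenous protein or to the fusion. No Cre and no single clone is named in the labels.

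Myc binds DNA as a dimer with Max, with its highest affinity for the E-box CACGTG, and in living cells it is found at most active promoters that are rich in CpG dinucleotides. RNAPII starts transcription at the TSS and often halts a short way into the gene before it is released into elongation, so the largest pile of RNAPII on a gene usually lies just past the TSS. Myc is known for its action on ribosome biogenesis, translation, nucleotide synthesis and glycolysis, and several of its classical targets carry E-boxes inside the first intron.

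E-boxes at the Myc summit are shown first, as examples picked for an E-box near Myc and an RNAPII summit farther away. An E-box lay within 50 bp of the Myc summit at 13.1% of promoters with both summits within 1000 bp of the TSS. Any part of the E-box in the distance between the summits was not tested. The lines below give 30 bases of the coding strand around the E-box nearest the Myc summit (mm9, read from NCBIM37). They come from named genes where that E-box lay within 25 bp of the Myc summit and the RNAPII summit lay over 100 bp away from Myc. Rplp1, Nop56, Bcl9l, Grk6 and Atp5sl also met these limits and are not printed. Over all times, the ranges of Myc and RNAPII summits overlapped at Rplp1, Nop56, Bcl9l and Grk6. At Atp5sl, as at most of the printed genes, they kept apart. Capitals mark each CACGTG, which reads the same on both strands.
Npm1, chr11:33062371-33062400, minus strand: aacccctaggagCACGTGgttgcCACGTGg
Ncl, chr1:88255348-88255377, minus strand: tgcggagccccgCACGTGtcgcgcgacccg
Eif4a1, chr11:69486097-69486126, minus strand: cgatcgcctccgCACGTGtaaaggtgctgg
Ldha, chr7:54101114-54101143, plus strand: cggcccagcctaCACGTGggttcccgcacg
Impdh2, chr9:108462645-108462674, plus strand: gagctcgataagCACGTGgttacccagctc
Zfp36l2, chr17:84587819-84587848, minus strand: ctactgcgtctcCACGTGcagccgggccgg
Galnt7, chr8:60132466-60132495, minus strand: ctataaatcagcCACGTGgagttactgctg
Epb4.1l1, chr2:156302577-156302606, plus strand: gggagaactaacCACGTGttccgacatcac
The E-box centre lay 8.5 bp from the Myc summit at Npm1 and 670.5 bp from the RNAPII summit. At Ncl the distances were 21.5 bp and 501.5 bp, and at Eif4a1 2.5 bp and 333.5 bp. For contrast, the next lines give 30 bases around the base that was the summit of both factors at Adpgk, an ADP-dependent glucokinase, and at BC057079, neither of which has a CACGTG within 1000 bp of the TSS. A shared summit does not always lack one: at Tsr1, a ribosome maturation factor whose summits also coincide, the nearest of 3 lay 31.5 bp from both.
Adpgk, chr9:59139404-59139433, plus strand: aaggatcctgtagccaccggtgcggcggtg
BC057079, chr4:87740569-87740598, plus strand: gcagaagtgaggtaagccatgcggcgtggc

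RNAPII peaked just inside the gene, and Myc was centred on the TSS with a wider spread. Over the 9435 promoters with both, the median RNAPII summit was at 44 bp (95% interval of the median 42 to 47 bp) and the median Myc summit at -16 bp (-22 to -10 bp). The middle 50% of promoters ran from -104 to 129 bp for RNAPII and from -170 to 168 bp for Myc. RNAPII stood 1 to 150 bp downstream of the TSS at 39.9% of promoters and Myc at 20.4%. These intervals, and the Wilson 95% intervals of shares given below, cover counting error only, since each group held 1 library and no difference has a replicate check. A peak that covers a window can have its summit elsewhere, so the position results that follow use the 8351 promoters where both summits lay within 1000 bp of the TSS, unless stated. There RNAPII had a median position of 45 bp and Myc of -18 bp.

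**Figure D1:**
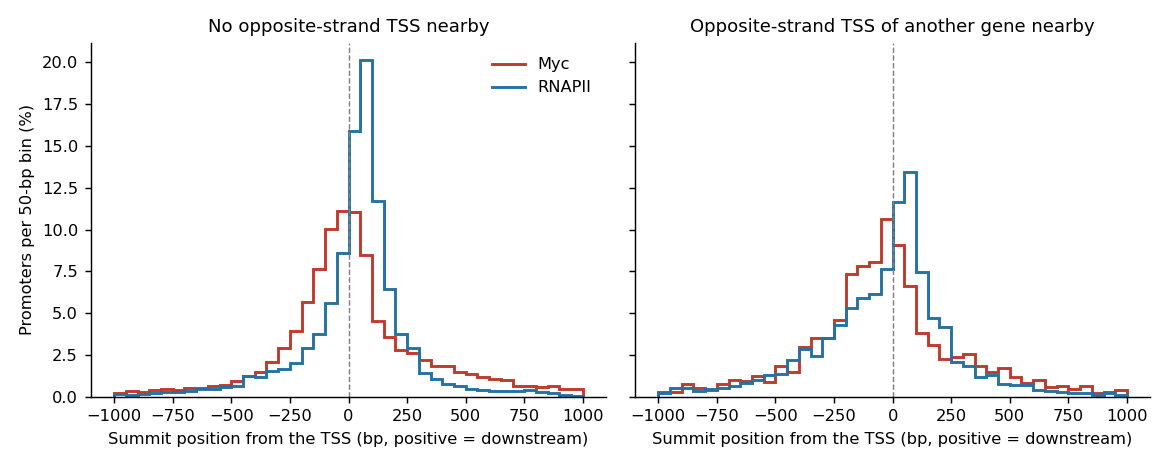
Share of promoters (y axis, % per 50-bp bin) by summit position from the TSS (x axis, bp) for Myc (red) and RNAPII (blue) at 0 min, where both summits lay within 1000 bp; left, 5942 promoters with no opposite-strand TSS of another gene within 1000 bp, right, 2409 with one. RNAPII has its highest bin at 50 to 100 bp (20.2% left, 13.4% right), while the Myc curve is highest around the TSS (11.1% left and 10.6% right in the bin from -50 to 0 bp).

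The same summit positions were then placed in the exons and introns of the transcript that gave the TSS. The Myc summit was upstream of the TSS at 53.6% of promoters (95% interval 52.6 to 54.7%), in the first exon at 29.6% and in the first intron at 15.2%. The RNAPII summit was in the first exon at 51.5% (50.5 to 52.6%), upstream at 36.8% and in the first intron at 10.7%. The RNAPII medians at promoters grouped by the place of the Myc summit were as follows. Where Myc sat in the first intron, at a median of 412 bp, RNAPII had a median of 100 bp, and where Myc sat in the first exon, at a median of 76 bp, RNAPII had a median of 82 bp. Where Myc sat upstream, at a median of -141 bp, RNAPII had a median of -6 bp.

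The summits of the factors were close but seldom on the same spot. Their distance had a median of 123 bp (95% interval 120 to 128 bp), with 43.2% of promoters within 100 bp and 67.6% within 200 bp. Over all 9435 promoters with both, the median distance was 140 bp. Only 23 of the 8351 promoters had both summits on the same base. RNAPII lay downstream of Myc at 57.0% (56.0 to 58.1%) and upstream at 42.7%, and the signed distance from Myc to RNAPII had a median of 28 bp (24 to 33 bp). The order with Myc before the TSS and RNAPII after it held at 26.0% of promoters, and the opposite order at 9.28%. Both were downstream at 36.7% and both upstream at 27.5%.

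Promoters with another gene starting nearby on the opposite strand had other values. At the 5942 promoters without one, RNAPII had a median of 54 bp (51 to 57 bp) and Myc of -8 bp, and RNAPII was downstream of Myc at 58.9% (57.7 to 60.2%). At the 2409 promoters with one, RNAPII had a median of 9 bp (-2 to 20 bp) and Myc of -43 bp, and RNAPII was downstream of Myc at 52.3% (50.3 to 54.3%). An antibody signal carries no strand, so RNAPII starting either gene can be counted at both where a peak overlaps both windows. The part of such counting in these differences was not tested.

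How far one summit moves between libraries of the same factor sets the scale for these distances. At 7184 of the promoters with both, all 12 Myc and RNAPII libraries had their summits within 1000 bp of the TSS. Between any pair of the 6 Myc libraries the median distance was 31 to 49 bp over 15 pairs, and between any pair of the 6 RNAPII libraries 33 to 43 bp over 15 pairs. Between a Myc and an RNAPII library it was 100 to 129 bp over 36 pairs. The ranges do not overlap: each of the 36 distances between factors exceeded each of the 30 distances within a factor. The time points are not replicates, so the distances within a factor also hold any change that OHT brought.

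**Figure D2:**
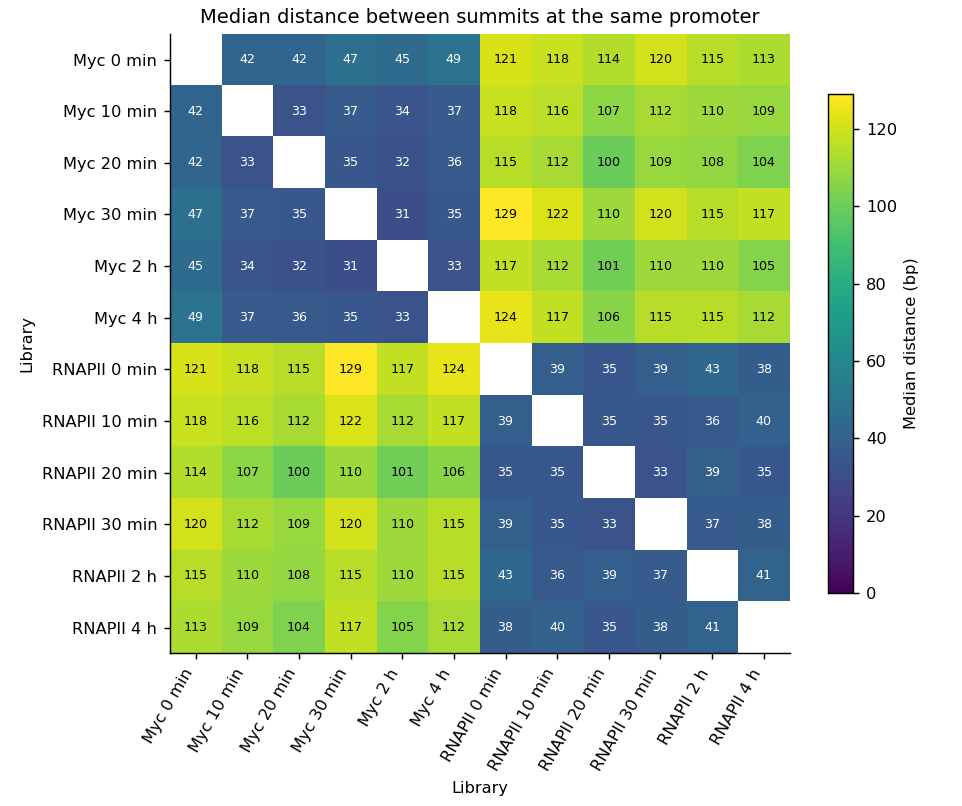
Median distance in bp between the summits of 2 libraries at the same promoter (colour and number), over 7184 promoters, for 6 Myc and 6 RNAPII libraries in order of time. The 2 blocks on the diagonal, within a factor, hold 31 to 49 bp, and the blocks off the diagonal, between factors, hold 100 to 129 bp.

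The Myc 0 min library stood slightly apart from the later ones. It lay 42 to 49 bp from each later Myc library, while the 5 later libraries lay 31 to 37 bp from each other. Its median position at these promoters was -17 bp, and the later medians were 11, 17, 25, 22 and 27 bp at 10, 20 and 30 min, 2 h and 4 h. The RNAPII medians were 44 bp at 0 min and 52, 56, 60, 52 and 50 bp later. The median signed distance from Myc to RNAPII was 26 bp at 0 min (95% interval 21 to 31 bp) and 19, 11.5, 11.5, 6 and 0 bp at the later times. The share of these promoters with RNAPII downstream of Myc was 56.7% at 0 min and 49.8% at 4 h. With 1 library per time, library and time cannot be told apart.

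The order was then followed through all 12 libraries. All 6 RNAPII summits lay downstream of all 6 Myc summits at 1447 of the 7184 promoters (20.1%), all lay upstream at 1120 (15.6%), and the ranges overlapped at 4617 (64.3%). The sets were chosen by the order of the summits, which in part fixes the positions given next. Where RNAPII was always downstream, Myc sat at a median of -113 bp and RNAPII at 73 bp. The Myc summit there was before the TSS at 80.8% (52.3% where the ranges overlapped). Where RNAPII was always upstream, Myc sat at a median of 281.5 bp, in the first intron at 47.9% (first intron at 11.4% where the ranges overlapped), while RNAPII had a median of 8 bp. An E-box lay within 50 bp of the Myc summit at 21.1% and 20.4% of these sets, against 9.47% where the ranges overlapped. Myc folds also ranked higher in both sets, with a median percentile within the Myc list of 79.9 and 74.8 against 65.2. RNAPII folds did too, by less, with a median percentile within the RNAPII list of 80.8 and 80.7 against 77.1.

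Named promoters show how tight these positions can be. Npm1, which encodes the nucleolar protein nucleophosmin, had its Myc summit at 812 bp in the first intron at 0 min and at 797 to 839 bp in the 5 later libraries. Its RNAPII summit was at 150 bp in the first exon at 0 min and at 130 to 168 bp later. Neither factor's range came near the other's. Ncl, the gene of nucleolin, had Myc at 689 bp at 0 min and 690 to 712 bp later, and RNAPII at 166 bp and 135 to 157 bp. Ccnd2, a D-type cyclin, had Myc at 616 bp at 0 min and 578 to 661 bp later, and RNAPII at 138 bp and 125 to 187 bp. Odc1, the rate-limiting enzyme of polyamine synthesis, had Myc at 364 bp and 332 to 375 bp. Its RNAPII summit was at 62 bp at 0 min, between 71 and 144 bp in 4 later libraries, and at -513 bp at 20 min. All 4 genes had Myc in the first intron at 0 min and RNAPII upstream of Myc in every library.

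Other genes had Myc before the TSS. Eif4a1, an RNA helicase of translation initiation, had Myc at -184 bp at 0 min and -199 to -143 bp later, and RNAPII at 147 bp and 79 to 149 bp. Ldha, lactate dehydrogenase A, had Myc at -89 bp and -133 to -48 bp, and RNAPII at 35 bp and 28 to 77 bp. Zfp36l2, which binds AU-rich messenger RNAs, had Myc at -570 bp and -538 to -518 bp, and RNAPII at 18 bp and 17 to 73 bp. Galnt7, a glycosyltransferase, was the only 1 of the 6 named genes with RNAPII farthest downstream whose ranges kept apart, with Myc at -638 bp and -653 to -631 bp, and RNAPII at 684 bp and 673 to 728 bp. Epb4.1l1, a membrane skeleton protein, was the only 1 of the 6 with RNAPII farthest upstream to do so, and had Myc at 970 bp and 924 to 990 bp, and RNAPII at -497 bp and -524 to -483 bp. All of these genes are among those shown above, which were chosen for an E-box within 25 bp of the Myc summit. Rplp0 and Lrrc28, with Myc at -32 and -535 bp at 0 min and RNAPII always downstream, had none within 1000 bp of the TSS. Of the genes with Myc in the first intron, Odc1 and Ccnd2 had their nearest E-box 109.5 and 1203.5 bp from the Myc summit. At Npm1 and Ncl it was 8.5 and 21.5 bp away.

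Not every large distance recurred. Zfp161 had the Myc summit at -821 bp and the RNAPII summit at 780 bp at 0 min, but RNAPII was at -775, -800, -846 and -784 bp in 4 later libraries and at 768 bp in 1. Bend3 led the 6 named genes with RNAPII farthest downstream of Myc at 0 min (Myc -947 bp, RNAPII 989 bp). Later it had RNAPII at -575, -485, 989, -567 and -508 bp. Its Myc summit also moved, to -693, -439, 927, -385 and -436 bp. Rpl13a had Myc at -272 bp at 0 min and at 4181 to 4211 bp in the 5 later libraries, and the Myc peak of 0 min, chr7:52377883-52385606, covers both places. Nop56, a core protein of box C/D particles, had Myc at -524 bp at 0 min and at 133 to 308 bp later, with RNAPII at 3 bp and -6 to 44 bp. An E-box lay 20.5 bp from its Myc summit of 0 min. A list gives 1 summit per peak, so lower maxima of these peaks are not seen here. At the other end, Adpgk had both summits at 40 bp at 0 min, and later Myc stood at 45 to 66 bp and RNAPII at 52 to 84 bp. Cad, the enzyme of the first steps of pyrimidine synthesis, had Myc at 52 bp and RNAPII at 35 bp.

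**Figure D3:**
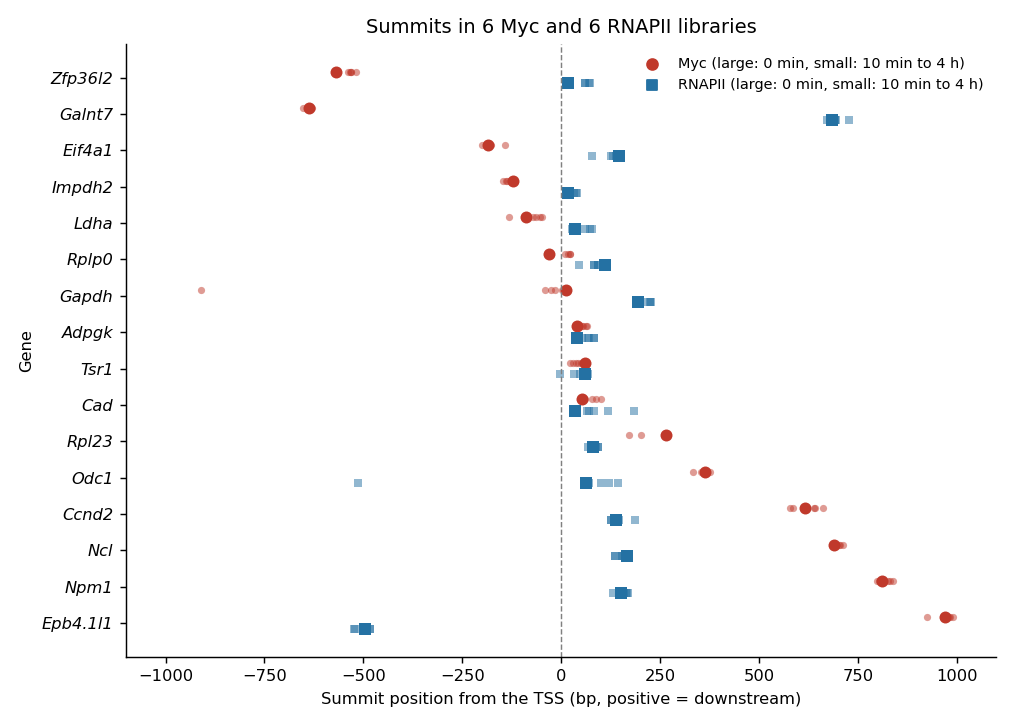
Summit positions (x axis, bp from the TSS) of Myc (red circles) and RNAPII (blue squares) at 16 genes chosen after their values were seen, large at 0 min and small in the 5 later libraries; 1 RNAPII summit of Impdh2, at 7133 bp, lies outside the axis. Myc positions run from -638 bp at Galnt7 to 970 bp at Epb4.1l1 at 0 min, and RNAPII summits at 0 min lie between 18 and 193 bp except at Galnt7 (684 bp) and Epb4.1l1 (-497 bp).

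E-boxes lay at the Myc summit more often than at the RNAPII summit. CACGTG was searched within 1000 bp of the TSS. It was found at 27.9% of all 22219 promoters, and 3.36% of all promoters had one within 50 bp of the TSS. Among the 8351 promoters with both summits near, 63.9% had none, 2294 (27.5%) had exactly 1 and 724 had 2 or more. An E-box centre lay within 50 bp of the Myc summit at 1096 promoters (13.1%) and within 50 bp of the RNAPII summit at 258 (3.09%). Where the promoter had exactly 1 E-box, it was nearer to the Myc summit at 67.8%. It was within 50 bp of Myc at 31.1% and within 50 bp of RNAPII at 7.28%.

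The shares lay farthest apart where the summits were over 200 bp apart, which that choice in part fixes. There an E-box within 50 bp of 1 summit cannot lie within 50 bp of the other. At 843 such promoters with a single E-box, it lay within 50 bp of the Myc summit at 40.8% (95% interval 37.5 to 44.2%) and within 50 bp of the RNAPII summit at 1.66% (0.992 to 2.77%). The median distance from the E-box was 78.5 bp to Myc (65.5 to 99.5 bp) and 441.5 bp to RNAPII (420.5 to 465.5 bp). The direction of the displacement made little difference. With RNAPII downstream of Myc (438 promoters) the share within 50 bp of Myc was 41.6%, and with RNAPII upstream (405 promoters) it was 40%. Myc summits in the first intron had an E-box within 50 bp at 19.5%, those upstream at 13.3% and those in the first exon at 9.22%.

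**Figure D4:**
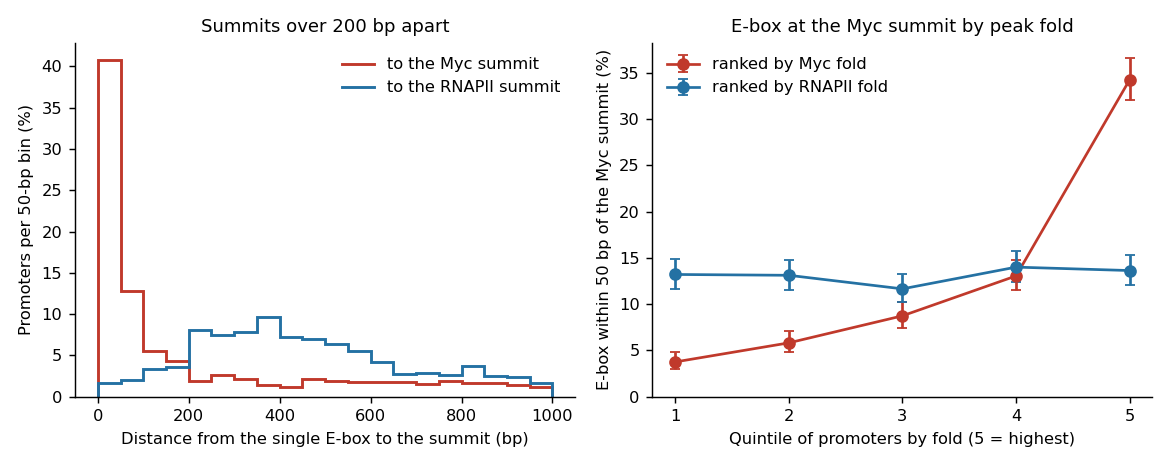
Left, distance (x axis, bp) from the only E-box to the Myc (red) and the RNAPII (blue) summit at 843 promoters with summits over 200 bp apart (y axis, % per 50-bp bin); right, share of promoters with an E-box within 50 bp of the Myc summit (y axis, %, bars are Wilson 95% intervals) by quintile of Myc fold (red) and of RNAPII fold (blue). The first bin holds 40.8% for Myc and 1.66% for RNAPII, and the share climbs from 3.76 to 34.3% with Myc fold and stays between 11.7 and 14% with RNAPII fold.

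The share of promoters with an E-box at the Myc summit was higher at higher Myc fold, and showed no such order with RNAPII fold. Fold is the authors' enrichment of a peak over the control, and it was ranked only within its own list. Over the quintiles of promoters by Myc fold, from lowest to highest, an E-box lay within 50 bp of the Myc summit at 3.76, 5.82, 8.74, 13.1 and 34.3%. Over the quintiles by RNAPII fold the shares were 13.2, 13.1, 11.7, 14 and 13.6%. Promoters with an E-box at the Myc summit had a median Myc percentile of 89.8 (95% interval 88.3 to 90.7) against 64.7 (63.8 to 65.6) for the rest. Their median RNAPII percentiles were 76.8 (75.7 to 78.8) and 77.4 (76.8 to 77.9). In those promoters Myc was also farther from the TSS, at a median of 211 bp in either direction against 140 bp, and farther from RNAPII, at 193 bp against 116 bp. RNAPII kept its distance from the TSS, at 111 and 107 bp.

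The ranks of the factors rose together, loosely. Spearman's rho between Myc fold and RNAPII fold was 0.374 over the 9435 promoters with both and 0.366 over the 8351, as a description. Promoters are not independent, since neighbouring genes share peaks (8293 distinct pairs of peaks served the 9435 genes) and both lists were called against input. Tags within the peaks gave 0.602, but tag counts also follow the width of a peak. Of the 1670 promoters in the highest quintile for Myc, 609 (36.5%) were in the highest quintile for RNAPII and 129 (7.72%) in the lowest. Of the 1675 in the lowest quintile for Myc, 660 (39.4%) were also in the lowest for RNAPII and 119 (7.10%) in the highest. The median RNAPII fold was 22.5 in the lowest Myc quintile and 40.1 in the highest. Over the Myc quintiles, from lowest to highest, the median signed distance from Myc to RNAPII was 9, 34, 35, 33 and 26.5 bp, and RNAPII was downstream of Myc at 52.4% in the lowest and 58.5 to 58.8% in the next 3. The median Myc summit lay between -28 and 0 bp, the median RNAPII summit between 39 and 49 bp, and the median distance without sign between 116 and 133 bp. Over the RNAPII quintiles that distance lay between 105 and 143 bp, the longest in the lowest.

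The 10 genes highest in both lists, with both summits within 1000 bp of the TSS, were named by their folds. Ncl had the highest Myc fold of any promoter with both summits near (87.0) with an RNAPII fold of 105.94. Rpl13a had folds of 67.55 and 135.49, Eif4a1 65.5 and 98.7, Npm1 60.5 and 124.18, and Rplp0 57.0 and 135.07. Rpl10a, Rpl23 and Rplp1, which like Rpl13a and Rplp0 encode ribosomal proteins, and Zfp36l2 and 8430406I07Rik completed the 10.

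Some promoters ranked far apart in the lists. Epha2, an ephrin receptor, had an RNAPII fold of 80.7 (percentile 98.3) and a Myc fold of 4.87 (percentile 3.4). Hist2h2bb, a histone gene, had 103.55 and 5.84, and Plau, the urokinase plasminogen activator, had 72.6 and 5.86. Lbh, Osbpl11, Adc, Lrrc28 and Arhgap21 completed the 8, with RNAPII folds of 44.5 to 87.0 and Myc folds of 4.48 to 5.83, and none of the 8 had an E-box within 1000 bp of the TSS, as was the case at 63.9% of all promoters with both summits near. The reverse group had Myc folds of 13.3 to 37.3 and RNAPII folds of 3.93 to 7.57. Atp5sl had the highest Myc fold of them (37.3, percentile 97.5), with an RNAPII fold of 7.57 and an E-box 8.5 bp from the Myc summit. Tef, a PAR bZIP transcription factor, had folds of 24.8 and 7.29 and an E-box 9.5 bp from the Myc summit. Of the other 6, Atat1, Map2k6 and Tdrd7 had no E-box within 1000 bp of the TSS, and Fam108c, Kcnab2 and Rasgrp3 had theirs 60.5 to 896.5 bp from the Myc summit. Atat1, a tubulin acetyltransferase, had an RNAPII fold of 3.93 in the narrow list and 27.3 in the broad list, so its low rank holds for the narrow list alone.

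The gene lists of Myc-linked growth functions had Myc at nearly every member. Ribosome biogenesis had both factors at 30 of 30 genes, cytosolic ribosomal proteins at 38 of 38, nucleotide and polyamine synthesis at 27 of 27, translation factors at 20 of 20, and mitochondrial import and chaperones at 20 of 20. Glycolysis had both at 16 of 17, the exception being Slc16a3 with neither. The background with both was 42.5% of all genes. Of the 10544 genes with RNAPII, 9448 (89.6%) also had Myc at some TSS, and the coverage of these lists lay near that share. Immediate-early genes (25 of 25) and histone genes (21 of 21) also had both throughout, as did 25 of 26 genes of RNAPII subunits and pausing and 27 of 28 cell cycle genes. Polr2c and Cdc25c had RNAPII alone. None of 19 olfactory receptor genes had either.

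Over all promoters RNAPII was downstream of Myc at 4762 of 8351. In 4 of these lists it was downstream at fewer than it was upstream, a difference that was not tested. It was downstream at 11 of 30 ribosome biogenesis genes, 12 of 36 ribosomal proteins, 10 of 26 nucleotide and polyamine genes and 5 of 17 translation factors with both summits near. The median signed distances were -40.5, -50, -32.5 and -133 bp. Their median Myc positions were 31.5, 143.5, 135.5 and 155 bp, against -18 bp over all promoters. Their median RNAPII positions were 4.5, 94.5, 94.5 and 122 bp, against 45 bp. An E-box lay within 50 bp of the Myc summit at 15 of the 30 ribosome biogenesis genes and 13 of the 26 nucleotide and polyamine genes, and at 7 of the 36 ribosomal proteins and 8 of the 17 translation factors (13.1% of all promoters). Median Myc percentiles were 98.9, 98.2, 92.6 and 97.1, against 68.0 over all promoters. The other lists did not show this order by count. RNAPII was downstream of Myc at 11 of 18 genes of mitochondrial import and chaperones (median signed distance 71 bp). It was downstream at 14 of 24 of RNAPII subunits and pausing (32 bp), 13 of 24 of the cell cycle (60 bp) and 8 of 15 of glycolysis (4 bp). By median position, Myc still lay downstream of RNAPII in glycolysis (140 against 109 bp) and fibroblast markers (204 against 155 bp).

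Immediate-early genes, which answer serum and stress within minutes, were the opposite in height. Their median RNAPII percentile was 97.9 and their median Myc percentile 54.2, against 77.3 and 68.0 over all promoters with both summits near. RNAPII was downstream of Myc at 12 of 17, against 57.0% over all. None of the 17 had an E-box at its Myc summit, against 13.1% over all, and these differences were not tested. Fos had folds of 5.86 for Myc and 41.2 for RNAPII, with summits at 27 and 54 bp. Jun had folds of 11.2 and 117.71, with summits at -538 and 71 bp. Histone genes had medians of 61.6 for Myc and 99.2 for RNAPII. Their RNAPII summit had a median of 683 bp and the Myc summit of 15 bp over 11 genes, and these are short, clustered genes whose wide RNAPII peaks can span neighbours. The Myc gene itself had a Myc fold of 6.58 (percentile 19.3) at -349 bp and an RNAPII fold of 70.9 at 216 bp. The summits of later Myc peaks that overlap its window stood at -352 and -394 bp in 2 libraries and at 1909 to 2446 bp in 3.

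**Figure D5:**
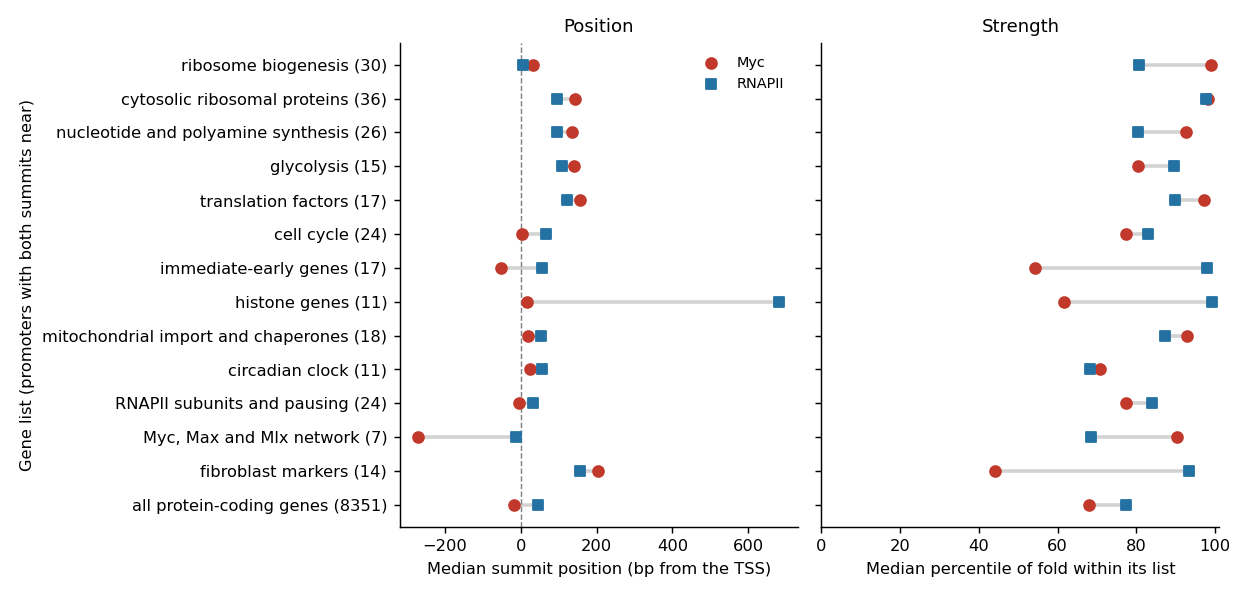
Median summit position (left, x axis, bp from the TSS) and median within-list percentile of fold (right, x axis) of Myc (red circles) and RNAPII (blue squares) for gene lists with at least 7 promoters where both summits were near (number in brackets). In ribosome biogenesis, ribosomal protein, nucleotide and translation lists the Myc median lies downstream of the RNAPII median. The same holds for glycolysis (140 against 109 bp) and fibroblast markers (204 against 155 bp). Over all 8351 genes the Myc median lies upstream (-18 against 45 bp).

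The labelled cell type was checked against markers. Of 21 fibroblast markers, 17 had both factors (42.5% of all genes), Col6a1 had RNAPII alone and Thy1, Postn and Fap had neither. Col6a1 had Myc in all 5 later lists. Col1a1 had an RNAPII fold of 142.62 and Col1a2 one of 130.33. Of 10 markers each of B cells, T or myeloid cells, neurons and hepatocytes, 1, 0, 1 and 0 had both (Ebf1 and Tubb3), Lck had RNAPII alone and Apoa1 had Myc alone. The median Myc percentile of fibroblast markers with both summits near was 44 and the RNAPII percentile 93.3, against 68.0 and 77.3 over all such promoters.

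Promoters with Myc alone were mostly weak. Their median Myc fold was 7.91 (95% interval 7.66 to 8.23), at percentile 33.6 of the list, against 13.1 at promoters with both. The nearest RNAPII peak was a median of 34474 bp from the TSS, and 55 of 481 had one within 5000 bp. RNAPII appeared at none of the 5 later times in the narrow lists at 262 of the 481 (54.5%). At 180 of the 481 it was called at 20 min, the deepest RNAPII library (36396286 tags against 15276996 at 0 min). Myc was called at all 5 later times at 371 (77.1%). The broad RNAPII list of the same library had a peak at 28 of the 481, and calling RNAPII from that list in place of the narrow one gave 760 genes with Myc alone. The 28 include some of the strongest Myc-only genes. Eif3e, a translation initiation factor subunit, had a Myc fold of 41.4 and a broad RNAPII fold of 30.1. Gm88 had 46.6 and 22.8, and Cog4, a Golgi tether, 25.25 and 25.5. Eif3e had RNAPII in none of the 5 later narrow lists. At these genes Myc alone therefore means no peak in the narrow list used, not a lack of RNAPII. Celsr2, a cadherin, was the highest with Myc alone among genes with the summit within 1000 bp of the TSS (fold 47.9 at 644 bp). It had no broad peak at 0 min, and RNAPII was called there in 3 later libraries. Adamts17 and Lrrc10b, with Myc folds of 25.03 and 26.96, had RNAPII in no later library and Myc in all 5.

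Promoters with RNAPII alone also had lower peaks than those with both. Their median RNAPII fold was 12.7 (95% interval 12.2 to 13.7), at percentile 50.6 of the list, against 31.1 at percentile 77.6. Myc was called at none of the later times at 495 of 1096 (45.2%) and at all 5 at 250 (22.8%). At 2 h, the longest Myc list, 562 (51.3%) had Myc. The broad list of the same library held 679 (62.0%) of the 1096, against 96.8% of the promoters with both. The size of the class depended on the lists: it was 688 genes with the broad list and 1881 when only peaks with a score (-10 log10 p) of at least 200 were kept in both lists. In both classes the summit was farther from the TSS than at promoters with both, at a median of 330 bp for Myc alone (169 bp with both) and 247 bp for RNAPII alone (121 bp).

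The highest RNAPII-only genes with the summit within 1000 bp of the TSS differed in how many later Myc lists held them. The 0 min Myc list is the shortest (19995 peaks, against 22996 to 27388 later). Tmsb4x, an actin monomer-binding protein and among the most abundant messages of many cells, had an RNAPII fold of 85.6 with the summit at 191 bp, and no Myc peak at any of the 6 times. Rgs4, which switches off G protein signals, had a fold of 76.9 at 37 bp and Myc at 1 later time. Pgrmc1, a heme-binding membrane protein, had 63.3 at 60 bp, and Ppp1r2, a phosphatase inhibitor, 62.6 at 79 bp. Both had Myc in all 5 later libraries, as had Clcc1 (fold 55.6), Klf3 (47.3) and C330007P06Rik (49.4). Ofd1, a centriole protein, had Myc at 4. The 120 bases before the TSS of the first 3 are shown because they carry RNAPII with no Myc call at 0 min. Capitals mark GGGCGG or CCAAT or TATAAA on either strand, and no CACGTG lies in them.
Tmsb4x, chrX:163647248-163647367, minus strand: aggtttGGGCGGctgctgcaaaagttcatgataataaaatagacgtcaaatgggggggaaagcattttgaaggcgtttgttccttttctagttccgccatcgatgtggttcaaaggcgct
Rgs4, chr1:171677774-171677893, minus strand: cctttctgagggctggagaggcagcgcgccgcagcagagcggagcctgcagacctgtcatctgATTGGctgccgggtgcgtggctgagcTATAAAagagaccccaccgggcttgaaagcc
Pgrmc1, chrX:34138081-34138200, plus strand: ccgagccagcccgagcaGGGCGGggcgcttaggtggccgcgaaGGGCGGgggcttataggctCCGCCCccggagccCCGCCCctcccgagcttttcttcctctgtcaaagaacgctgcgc
Within 200 bp of the TSS, on either strand, TATAAA was found at 13.4% of all promoters, CCAAT at 41.9% and GGGCGG at 51.4%.

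The classes differed in base composition and motifs. The ratio of observed to expected CpG had a median of 0.84 at promoters with both, 0.63 with Myc alone, 0.63 with RNAPII alone and 0.27 with neither. Within 200 bp of the TSS, CACGTG was found at 12.2% of promoters with both (95% interval 11.6 to 12.9%), 12.5% with Myc alone (9.82 to 15.7%), 5.57% with RNAPII alone (4.36 to 7.08%) and 6.13% with neither, and at 8.83% of all. CCGGAAG, the core bound by ETS factors, was found at 24.4%, 5.61%, 12.7% and 4.23%, and at 13.2% of all. TATAAA was found at 5.59%, 11.0%, 8.94% and 20.6%. GGGCGG followed the CpG content, at 77.1%, 57.4%, 63.0% and 28.5%. Promoters with both had an opposite-strand TSS of another gene within 1000 bp at 28.3%, those with Myc alone at 11.4% and those with RNAPII alone at 12%.

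RNAPII without Myc was most frequent on chromosome X. There 71 of 290 promoters with RNAPII lacked Myc (24.5%, 95% interval 19.9 to 29.7%), against 1025 of 10254 on the autosomes (10.0%, 9.43 to 10.6%), and the highest autosome was 18 with 14.9% (11.2 to 19.7%). Of promoters with Myc, 5.19% on X and 4.84% on the autosomes lacked RNAPII. Peaks on X were lower for both factors, and the labels do not give the copy number of X in these cells. At promoters with both, the median Myc fold was 9.65 on X and 13.2 on the autosomes, and the median RNAPII fold 22.5 and 31.4. The part of copy number was not tested, and that of peak height was not tested beyond a split of RNAPII promoters into quintiles of RNAPII fold. The share without Myc was 44.7% on X and 32.4% on the autosomes in the lowest quintile, 18.9% and 9.39% in the next, 10% and 4.51% in the third, and 0 of 33 (Wilson upper bound 10.4%) and 1.5% in the fourth. It was 6 of 18 on X (33.3%, 16.3 to 56.3%) and 2.88% in the highest, and Tmsb4x, Pgrmc1, Ofd1 and C330007P06Rik are among those 6. Ofd1 shares its RNAPII peak with Trappc2, and C330007P06Rik with Ube2a, the other two. In the later Myc lists 6.55 to 15.9% of the X promoters lacked Myc, against 5.15 to 7.65% on the autosomes.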

How the data were processed

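BWA 0.6.2-r126 and the mm9 build are named in the submitters' processing notes. The file headers record 1 call per library, with input as control. They give MACS 1.4.2, a p cutoff of 1.00e-08 and 1 tag per position for the Myc and the narrow RNAPII lists, and MACS 2.0.9 for the broad RNAPII list. The tag count of a peak is the authors' own and is not scaled to depth. A score of −10 times log10 p was deposited for each MACS 1.4.2 peak, and −log10 p and −log10 q for each broad peak. The deposited fold is a ratio of ChIP to control tags. The deposited false discovery rate is a percent, and the broad list adds a deposited pileup signal. Scores and folds were compared within a list only. With 1 library per group there was no test and no p-value between the factors.

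TSSs were those of GENCODE protein-coding transcripts on NCBIM37, whose chromosome lengths the peaks were checked against, with mitochondrial genes left out. The largest peak end passed the chromosome end on chromosome 3 (159599944 against 159599783 bp) and chromosome 9 (124076333 against 124076172 bp), and on no other. Each gene took 1 TSS, the first-numbered transcript whose 1000 bp window held both factors or, failing that, the factor present. Where several peaks overlapped a window, the one with the highest fold was taken. The summit was read from the summit column, and percentiles are ranks among all peaks of a list. Motifs were searched on both strands. Shares carry Wilson 95% intervals, and medians an order-statistic binomial 95% interval. Work was done in Python 3.11.15 with pandas 2.3.3, scipy 1.17.1 and pysam 0.24.0, and the promoter assignment was tested on simulated peaks.

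The named genes are those highest in both lists, in Myc alone and in RNAPII alone (10 each), the 8 most unequal in rank in each direction, the 6 with RNAPII farthest downstream, farthest upstream and closest, 13 genes always shown, and examples and exceptions of 18 gene lists. The members and lists were chosen with earlier results of these data known. Of the list symbols, 365 were matched. Alternatives were other window widths, TSS and peak choices, a stricter score, the broad list, lists of equal length, and leaving out opposite-strand TSSs or genes that share peaks. Miz1 lists were not used here, and not every gene the rule picks is reported here.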

Additional observations from a re-analysis of the deposited data

How the results depend on the processing

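The number of genes with both factors stayed within 1.5 times of 9435 under the 9 alternatives run (6769 to 9566), and the median signed distance from Myc to RNAPII stayed between 24 and 28 bp under 10. No median changed sign. With the most 5′ TSS of each gene only, the median Myc position was -3 bp and the RNAPII position 54 bp, and without opposite-strand TSSs they were -5 and 53 bp. With 1 gene per pair of peaks the RNAPII median was 49 bp. With peaks of a score of at least 200 only, RNAPII alone was called at 1881 genes and the rank correlation was 0.28. With the broad RNAPII list, Myc alone was called at 760 genes and RNAPII alone at 688, the median distance was 134 bp and the rank correlation 0.344. With summits required inside the window the median distance was 125 bp. The cause of these shifts was not tested, except that fewer peaks enter under the stricter score. The Myc library held more tags than the RNAPII library (33431447 and 15276996), so absence from the RNAPII list rests on less depth than absence from the Myc list.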
